A study of Mus musculus with 33 samples.

Results

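The insulin-like growth factor (IGF) binding proteins, the ligand Igf1 and its receptor Igf1r were followed through birth in mouse lung and liver. Every probe set annotated to Igfbp1, Igfbp2, Igfbp3, Igfbp4, Igfbp5, Igfbp6, Igfbp7, Igf1 or Igf1r, under these symbols or older names, was taken, which gave 14 of the 12488 probe sets of the Affymetrix MGU74Av2 array for 9 genes. Of these, 13 carry 1 gene symbol. Probe set 100566_at is annotated to both Tmem119 and Igfbp5, is the 1 probe set for Igfbp5, and cannot be read as either gene alone. RNA of whole lung and whole liver of C57/BL mice (BL/57 in some labels, C57B/6J dams in the study's methods) had been hybridised to 33 arrays, 3 for each of 11 groups. The lungs of 10% oxygen came from fetuses on day 21 of gestation (F21), taken after the dam had breathed 10% oxygen for 12 h, and from newborns at 2 h and 6 h after birth into 10% oxygen. By the study's methods the dams of these newborns were also in 10% oxygen before delivery, for a time that is not stated. The lungs of room air (21% oxygen) came from F21 and from 2 h, 6 h, 12 h and 24 h after birth, and the livers from F21, 2 h and 6 h, of birth in room air by the study's methods, since their labels give no oxygen level. Nothing states that the 3 arrays of a group came from separate litters, so the p-values measure the spread between these samples.

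Values are MAS5 signals, a brightness on a linear scale that had been set to a common target of 100 on every chip. All tests used limma on log2 signals with a floor of 10, with p-values adjusted over every probe set tested, and "passed" means an adjusted p under 0.05. Of the 14 probe sets, 11 were bright enough to be tested in lung, 9 in liver and 12 in the fit of both organs. Neither probe set of Igfbp1 was tested in the lung fit, and 101570_at of Igfbp4, at 3.5 to 56.6 in lung and 6.0 to 38.5 in liver, was tested in none. Different probe sets differ in brightness per molecule, so levels are compared only within a probe set. In whole organs, fewer cells of a type and less RNA per cell cannot be told apart.

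The arrays matched their organs: 5 alveolar epithelial markers summed to 22921 to 71028 in lung and 181 to 378 in liver, and 6 hepatocyte markers to 105505 to 134119 in liver. One array stood apart, the second F21 lung of 10% oxygen, where the hepatocyte markers summed to 3062 (Alb at 2160, Apoa1 at 576), against 72.2 to 490 in the other 23 lungs. The ratio of the 3′ to the 5′ Gapdh control, a sign of RNA integrity, was 1.21 to 9.40 in lungs of 10% oxygen, 0.734 to 1.15 in lungs of room air and 1.30 to 1.86 in livers. Replicate arrays correlated at 0.749 to 0.825 in lungs of 10% oxygen and at 0.896 to 0.950 in lungs of room air. The BioB 3′ hybridisation spike read 75.9 to 111 at 2 h and 73.9 to 99.5 at 12 h in room air, against 227 to 529 at F21.

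The binding proteins are secreted carriers that hold IGFs in blood and tissue, lengthen their life there and keep them from the receptor. Igf1r is the cell surface tyrosine kinase through which Igf1 and Igf2 promote growth and survival. Liver is a major source of circulating IGFs and of several carriers. Some of the genes are neighbours in the mouse genome (GRCm38.p6): Igfbp1 (chr11:7197787-7202546) lies 3539 bases from Igfbp3 (chr11:7206086-7215498), and Igfbp2 (chr1:72824480-72852474) lies 5590 bases from Igfbp5 (chr1:72858065-72874865). The 250 bases before a listed start are shown for 3 members, because these had the largest differences between lung and liver. Igfbp1 and Igfbp2 were high in liver and Igfbp6 was high in lung. Igfbp2 has 2 listed starts, and only the first was used. The sequences are from RefSeq, build GRCm38.p6, all on the plus strand (chr11:7197537-7197786, chr1:72824230-72824479 and chr15:102143936-102144185), and capitals mark matches to the searched motifs.
Igfbp1: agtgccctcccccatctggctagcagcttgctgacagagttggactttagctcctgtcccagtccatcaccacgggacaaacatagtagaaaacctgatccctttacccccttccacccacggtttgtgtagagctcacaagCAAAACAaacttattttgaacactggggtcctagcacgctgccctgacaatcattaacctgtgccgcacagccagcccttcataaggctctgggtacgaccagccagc
Igfbp2: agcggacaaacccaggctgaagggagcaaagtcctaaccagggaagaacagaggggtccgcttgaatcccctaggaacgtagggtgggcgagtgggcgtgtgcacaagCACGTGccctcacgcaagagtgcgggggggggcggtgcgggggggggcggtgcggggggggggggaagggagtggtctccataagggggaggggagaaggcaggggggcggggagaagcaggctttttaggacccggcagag
Igfbp6: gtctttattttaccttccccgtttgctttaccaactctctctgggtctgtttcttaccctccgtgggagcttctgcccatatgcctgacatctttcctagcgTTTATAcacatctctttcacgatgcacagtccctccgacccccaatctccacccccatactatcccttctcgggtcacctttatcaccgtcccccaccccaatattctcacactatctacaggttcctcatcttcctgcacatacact

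A forkhead site, a hypoxia response core and a TATA box were searched on both strands of the 250 bases. The letters CAAAACA, a form of the forkhead site, were found in Igfbp1 alone of the 9 genes, 108 bases before the start, and in 5.55% of 27025 promoters. The letters ACGTG, the core of the hypoxia response element, were found in Igfbp2, where they lie inside CACGTG and so match on both strands with overlap 142 bases before the start, in Igfbp7, 175 bases before it, and in 16.6% of promoters. The TATA box letters TATAAA were found in Igfbp4, 28 bases before the start, in Igfbp6 on the minus strand, 148 bases before it, and in 13.0% of promoters. A match describes these letters and is no evidence of binding.

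Igfbp1 and Igfbp2 stood far higher in liver than in lung, and Igfbp6 far higher in lung than in liver. Igfbp1, the carrier known for rapid control by insulin and fasting, was read by 103896_f_at at 4.3 to 41.2 in lungs of room air, against 5494 to 15299 in livers. In F21 samples it read 19.4, 7.6 and 28.7 in lung, against 6388, 11305 and 9498 in liver. No lung array came near any liver array. The log2 difference, lung minus liver, was -8.96 at F21 (SE 0.61, adjusted p = 2.55e-13), -9.80 at 2 h (adjusted p = 3.65e-14) and -8.32 at 6 h (adjusted p = 1.53e-12), and since several lung values lay under the floor of 10, its size depends on that floor. Without the livers, where it is high, this probe set would not have entered the fit of both organs. Its p-values are therefore no added support for the difference. The second Igfbp1 probe set, 103897_r_at, did not show this: it read 5.0 to 68.3 over the 24 lungs, against 18.0 to 97.0 in livers, and correlated with the first at -0.22 over the 24 lung arrays.

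Igfbp2, an abundant carrier of fetal life, read 142, 110 and 170 in F21 lungs of room air, against 5086, 4789 and 5621 in F21 livers. Over all times, it lay at 66.8 to 189 in lungs of room air, against 4693 to 7265 in livers, with no overlap. The log2 difference, lung minus liver, was -5.22 at F21, -6.11 at 2 h and -6.09 at 6 h (SE 0.27 each), that is 37.3-fold, 69.1-fold and 68.0-fold lower in lung (adjusted p = 5.88e-16, 1.67e-17 and 2.33e-17). Igfbp4, a carrier that mainly restrains IGFs and is cut by the protease Pappa, was lower in lung by 101571_g_at, with log2 differences of -2.12, -1.13 and -1.36 at F21, 2 h and 6 h. Its other tested probe set, 94222_at, gave 0.47, -0.17 and -0.40 and did not pass.

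Igfbp6, which binds Igf2 in preference to Igf1, was the member most above liver in lung. It read 1025, 870 and 862 in F21 lungs of room air, against 34.3, 34.3 and 33.4 in F21 livers. The log2 difference was 4.75 at F21, 3.29 at 2 h and 5.26 at 6 h (SE 0.34 each; adjusted p = 7.23e-13, 2.83e-09 and 8.46e-14). The receptor Igf1r was also higher in lung, by log2 1.13, 1.46 and 2.07 at the same times (adjusted p = 0.00932, 0.00082 and 9.34e-06). At F21 it read 173, 169 and 150 in lungs of room air, against 119, 49.4 and 70.5 in livers. Its F21 call was lost without the second F21 liver (log2 0.84, adjusted p = 0.0874).

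**Figure D1:**
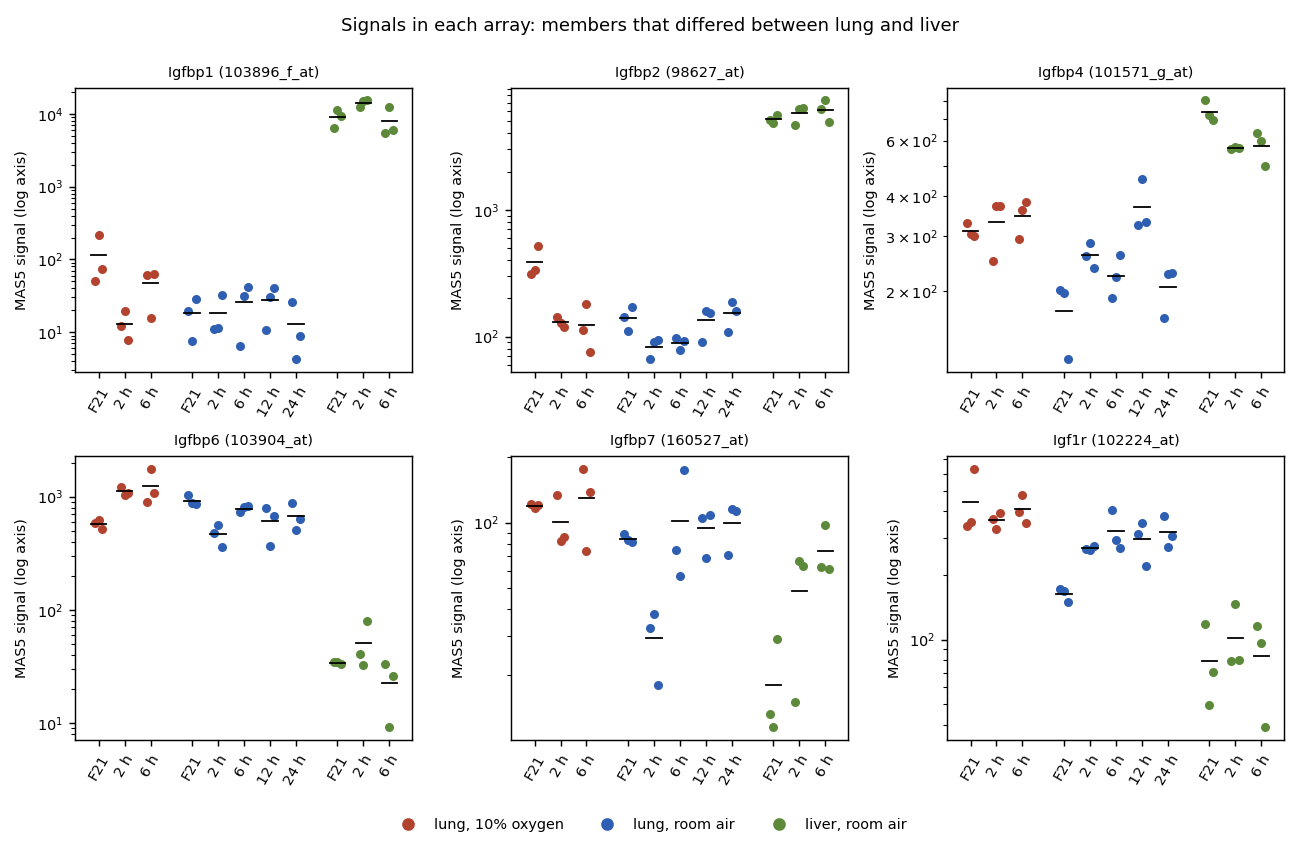
MAS5 signal on log axes for 6 probe sets in every array, with groups from left to right: lungs of 10% oxygen (red), lungs of room air (blue) and livers (green), each in order of time; points are arrays and black lines are means of 3. Igfbp1, Igfbp2 and Igfbp4 (101571_g_at) sit higher in livers, and Igfbp6 and Igf1r sit higher in lungs of both oxygen levels.

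Probe set 100566_at (Tmem119 and Igfbp5) was higher in lung by log2 1.45 at F21, 1.95 at 2 h and 1.65 at 6 h (adjusted p = 0.00643, 0.000278 and 0.00184). The F21 call was lost without the third F21 liver (log2 0.93, adjusted p = 0.0946). Igfbp7, a matrix and vessel protein that binds IGFs weakly, passed at F21 alone: it read 89.0, 83.2 and 81.2 in lungs of room air, against 13.2, 11.5 and 29.1 in livers (log2 2.36, SE 0.50, adjusted p = 0.000475). The liver values lie near the floor of 10, and with a pseudocount of 16 in its place the difference was 1.60. At 2 h and 6 h its differences were -0.50 and 0.33. Igfbp3, the main carrier of circulating IGFs in adults, passed by 95083_at at 2 h (log2 1.93, adjusted p = 0.0495) and at 6 h (log2 3.36, adjusted p = 0.000931), while 95082_at gave 0.23 and 0.87 and did not pass. The 2 h call of Igfbp3 held in 1 of 6 fits without 1 array, that without the first 2 h lung, and without the second 2 h lung it was log2 1.37 (adjusted p = 0.228). It was kept in 2 of 9 other settings.

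Igf1, a growth factor made in many tissues before and after birth, showed no passing difference between the organs. Its brighter probe set, 95545_at, read 382 to 670 in lungs of room air, against 280 to 505 in livers, with log2 differences of 0.44, 0.37 and 0.47 at F21, 2 h and 6 h (95% interval at F21, -0.05 to 0.93). The dimmer probe set, 95546_g_at, leaned the other way at 6 h without passing. It then read 23.2, 14.6 and 30.9 in lungs of room air, against 88.5, 101.5 and 64.4 in livers, without overlap. At F21 and 2 h its values overlapped between the organs. In all, 7 of the 12 tested member probe sets passed at each of the 3 times, 4 higher and 3 lower in lung. The 3 lower include Igfbp1 (103896_f_at), which entered this fit only because of the livers. Over all probe sets tested, 28% passed at F21, 33.9% at 2 h and 28.6% at 6 h. The median log2 difference of the members was 0.12, 0.03 and 0.40, beside 0.14, 0.16 and 0.10 over all probe sets.

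In liver itself none of the 9 tested probe sets passed against F21 at 2 h or 6 h, where 0.913% and 1.84% of all tested probe sets did. Igfbp1 was highest at 2 h, at 12632, 14815 and 15299, against 6388, 11305 and 9498 at F21, so that the 2 h and F21 values did not overlap. The log2 change was 0.69 (95% interval 0.11 to 1.27, adjusted p = 0.315). At 6 h it read 5494, 12626 and 6076, on both sides of the F21 values. Igfbp2 changed by log2 0.15 at 2 h and 0.23 at 6 h, with intervals of -0.19 to 0.49 and -0.11 to 0.57. Without adjustment, 3 of the 9 had a limma p under 0.05 at each time, beside 12.1% of all tested probe sets at 2 h and 13.4% at 6 h.

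In lungs born into room air, Igfbp3 and Igf1r were higher after birth than at F21, and Igfbp6 and Igfbp7 were lower at 2 h. Igfbp3 is read by 2 probe sets, which correlated at 0.74 over the 24 lung arrays. By 95083_at it read 46.6, 21.2 and 17.9 at F21, 53.7, 219 and 88.4 at 2 h, 291, 230 and 243 at 6 h, 247, 81.7 and 331 at 12 h, and 237, 60.9 and 285 at 24 h. Every array after birth lay above every F21 array. The log2 change was 1.96 at 2 h (adjusted p = 0.131), 3.28 at 6 h (SE 0.72, adjusted p = 0.0212), 2.85 at 12 h (adjusted p = 0.0458) and 2.62 at 24 h (adjusted p = 0.0943).

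The other probe set of Igfbp3, 95082_at, moved the same way without passing: it read 190, 219 and 184 at 6 h, against 26.1, 63.2 and 27.6 at F21 (log2 2.47, adjusted p = 0.146). At 24 h its second array read 11.6, below all F21 arrays, while the others read 191 and 293. The 6 h call of 95083_at held without the first F21 lung alone, where the change was log2 3.70, and was lost without any 1 of the other 5 arrays (log2 3.01 to 3.35 in those fits). The 12 h call was likewise kept in 1 of 6 such fits, that without the second 12 h lung, at log2 2.45 to 3.46 over all 6.

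**Figure D2:**
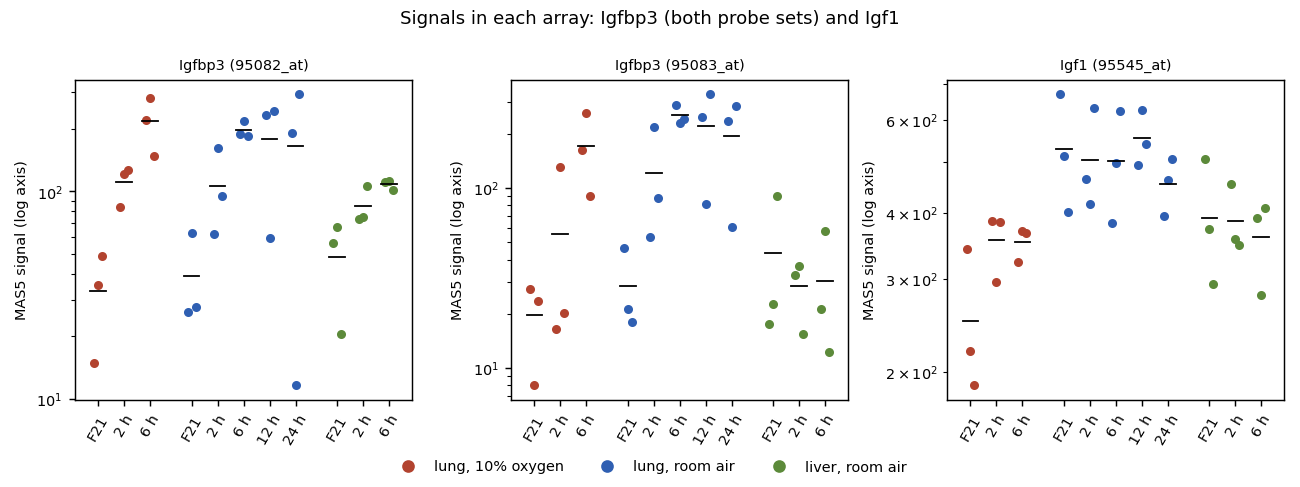
MAS5 signal on log axes for both Igfbp3 probe sets and for Igf1 (95545_at) in every array: lungs of 10% oxygen (red), lungs of room air (blue) and livers (green), each in order of time, with black lines at the means of 3. Igfbp3 sits low at F21 and higher at 6 h in lungs of both oxygen levels, and Igf1 reads 189 to 341 in F21 lungs of 10% oxygen, against 402 to 670 in F21 lungs of room air.

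Igf1r read 173, 169 and 150 at F21, 266, 264 and 275 at 2 h, and 405, 293 and 271 at 6 h. No array after birth fell into the F21 range, the lowest being 222 at 12 h. The log2 changes were 0.71 at 2 h (adjusted p = 0.0859), 0.96 at 6 h (SE 0.23, adjusted p = 0.044), 0.83 at 12 h (adjusted p = 0.0859) and 0.95 at 24 h (adjusted p = 0.0583). The 6 h call was lost in each of the 6 fits without 1 array, with log2 changes of 0.78 to 1.07. Igfbp4 by 101571_g_at was highest at 12 h, at 326, 452 and 331, against 202, 198 and 122 at F21 (log2 1.11, SE 0.23, adjusted p = 0.0148). The 94222_at probe set of Igfbp4 gave 0.07 at 12 h, and the 12 h call was lost without the third F21 lung (log2 0.87) or the second 12 h lung (log2 0.95).

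Igfbp6 read 474, 567 and 361 at 2 h in room air, against 1025, 870 and 862 at F21, with no overlap (log2 -0.996, SE 0.26, adjusted p = 0.0277). At 6 h it read 727, 802 and 820, still below every F21 array, and the changes from F21 were -0.23 at 6 h, -0.65 at 12 h and -0.48 at 24 h, none passing. Igfbp7 read 32.9, 38.0 and 17.9 at 2 h, against 89.0, 83.2 and 81.2 at F21 (log2 -1.58, SE 0.41, adjusted p = 0.0288), and 75.1, 56.9 and 175 at 6 h. Both calls held without the second 2 h lung and were lost without any 1 of the other 5 arrays (log2 -0.82 to -1.04 for Igfbp6 and -1.26 to -1.69 for Igfbp7). Other signals fell in the same 3 arrays: 4 red cell markers summed to 14912 to 19381 at 2 h, against 31552 to 36938 at F21, and 5 alveolar markers to 25597 to 28664, against 51282 to 64864. The alveolar sum is mostly Sftpc, at 17961 to 19210 at 2 h, against 43575 to 54367 at F21. Ager was lower too, at 2856 to 3986, against 4086 to 5357, while Sftpb, Sftpd and Pdpn overlapped between these groups. The spike was lower in these 2 h arrays too, as given above, and the part of these signals in the fall of Igfbp6 and Igfbp7 was not tested.

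Igf1 stayed within log2 0.20 of F21 at every time in room air by 95545_at (intervals from -0.69 to 0.58), and Igfbp2 gave -0.74, -0.64, -0.08 and 0.10 at 2 h, 6 h, 12 h and 24 h, none passing. Counted over the 11 tested members, 2 passed at 2 h, both lower, 2 at 6 h and 2 at 12 h, all higher, and none at 24 h. Over all 6931 probe sets tested, 4.24%, 1.02%, 1.34% and 0.577% passed at these times. At 24 h an unadjusted limma p under 0.05 was found for 2 of 11 members and 706 of all 6931 probe sets, and 3 members passed without the second 24 h lung, the array low in Igfbp3.

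**Figure D3:**
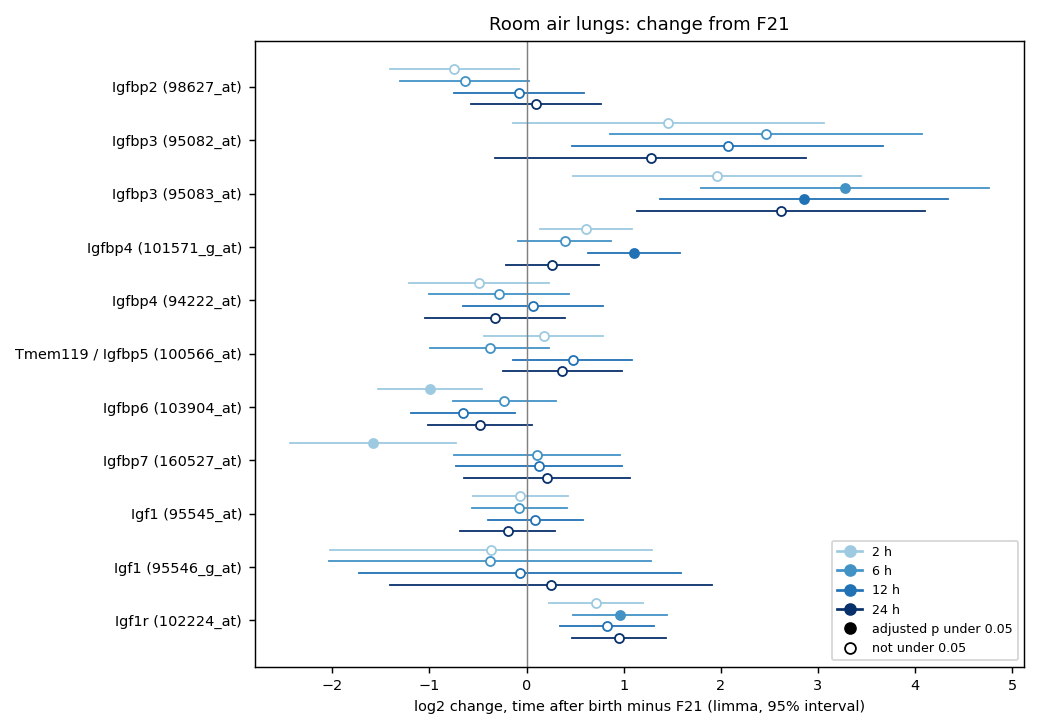
Log2 change from F21 in lungs of room air at 2 h, 6 h, 12 h and 24 h for the 11 member probe sets tested in lung; lines are 95% intervals from limma, and filled points have an adjusted p under 0.05. The filled points are Igfbp6 and Igfbp7 at 2 h, left of 0, and Igfbp3 (95083_at) at 6 h and 12 h, Igfbp4 (101571_g_at) at 12 h and Igf1r at 6 h, right of 0.

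Before birth, the F21 lungs of 10% oxygen differed from those of room air in 5 of the 11 tested members, 4 higher and 1 lower, beside 7.13% of all probe sets. Igf1r read 342, 355 and 634 in 10% oxygen, against 173, 169 and 150 in room air (log2 1.38, SE 0.23, adjusted p = 0.000865). Igfbp2 read 314, 332 and 519 in 10% oxygen, against 142, 110 and 170 in room air (log2 1.45, SE 0.32, adjusted p = 0.00775). Igf1 by 95545_at read 341, 219 and 189 in 10% oxygen, against 670, 513 and 402 in room air (log2 -1.10, SE 0.24, adjusted p = 0.00641). The groups did not overlap for any of these 3 genes, so that the receptor was higher and this Igf1 probe set lower in the lungs of 10% oxygen. The second Igf1 probe set, 95546_g_at, much dimmer and correlated with the first at -0.53 over the 24 lungs, read 56.8, 80.8 and 75.4 in 10% oxygen, against 13.5, 16.7 and 101 in room air (log2 1.31, adjusted p = 0.355).

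Probe set 100566_at (Tmem119 and Igfbp5) was higher in 10% oxygen at F21 at 460, 734 and 869, against 224, 257 and 335 in room air (log2 1.31, adjusted p = 0.00834). Igfbp4 by 101571_g_at read 329, 303 and 300 in 10% oxygen, against 202, 198 and 122 in room air (log2 0.87, adjusted p = 0.0229). Its 94222_at probe set gave -0.59 (adjusted p = 0.332). When the fit took in the Gapdh ratio, none of the 5 calls was kept: the log2 difference was then 1.11 for Igf1r (adjusted p = 0.0503), 1.25 for Igfbp2 (0.13), -0.72 for Igf1 (0.207), 0.83 for Igfbp4 (0.158) and 0.61 for 100566_at (0.366). The Gapdh ratios were 1.21, 6.79 and 9.40 in these 3 arrays of 10% oxygen, and no lung of room air exceeded 1.15. A call lost with this covariate therefore cannot tell oxygen level and RNA integrity apart. Without the third F21 lung of 10% oxygen, where it was highest, the calls of Igfbp2 (log2 1.22), Igfbp4 (log2 0.89) and 100566_at (log2 1.12) were lost. Those of Igf1 (log2 -0.91) and 100566_at (log2 1.18) were lost without the first F21 lung of room air, and that of Igfbp4 (log2 0.63) without the third. Marker sums also shifted between the same groups. The 5 alveolar markers summed to 22921 to 45419 in 10% oxygen, against 51282 to 64864 in room air, without overlap. Sums of 3 airway markers were 466 to 1684 in 10% oxygen, against 1625 to 3292 in room air, with overlap. Those of 9 fibroblast and smooth muscle markers were 5453 to 6590 in 10% oxygen, against 4052 to 5585 in room air, also with overlap. Col1a1 and Col1a2 are the brightest of these 9. Dcn and Pdgfra alone had lower medians in 10% oxygen, at 108 and 282, against 117 and 326 in room air. The alveolar sum is mostly Sftpc, and Sftpb, Sftpd and Ager overlapped between the groups. The airway sum is mostly Scgb1a1, at 108 to 1152 in 10% oxygen, against 798 to 2744 in room air. Of the 3 airway markers Foxj1 alone was higher in 10% oxygen, at 207 to 253, against 69.6 to 136 in room air. The part of these markers in the 5 differences was not tested.

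The highest Igfbp1 signal in lung was in the array where some hepatocyte markers were high. In the F21 lungs of 10% oxygen, 103896_f_at read 50.8, 218 and 73.1, against 19.4, 7.6 and 28.7 in those of room air, and the highest value was that of the array whose 6 hepatocyte markers summed to 3062. In that array 4 of the 6 markers were the highest of the group (Alb 2160, Apoa1 576, Ahsg 251 and Ttr 58.0), while Afp at 11.1 and Fgb at 6.5 were the lowest. The other 2 arrays of the group summed to 188 and 271, with Igfbp1 still above the 3 lungs of room air. Igfbp1 was not tested in the lung fit. Igfbp2, also high in liver, read 332 in that array, between the values of the other 2. Without that array its log2 difference between 10% oxygen and room air was 1.55 (adjusted p = 0.0151 by limma). All 5 members still passed, but Igfbp4 (101571_g_at) only just, at an adjusted p that rounds to 0.05.

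**Figure D4:**
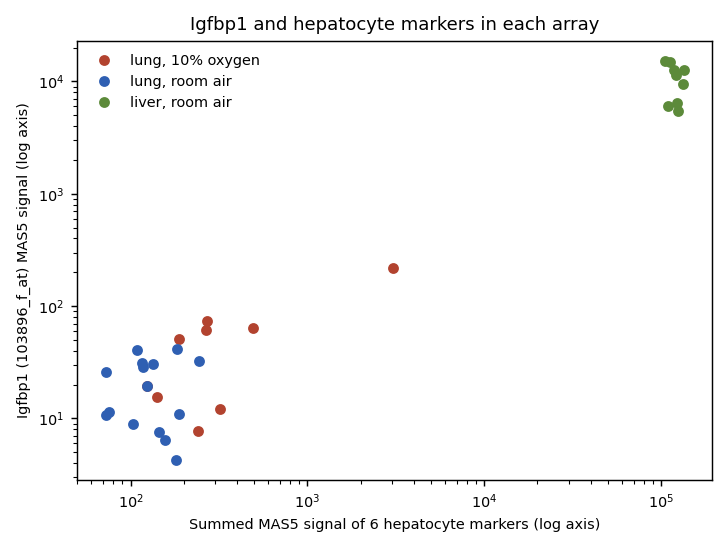
Igfbp1 (103896_f_at) signal against the summed signal of 6 hepatocyte markers in each of the 33 arrays, both on log axes: lungs of 10% oxygen (red), lungs of room air (blue) and livers (green). The second F21 lung of 10% oxygen, at 218 and 3062, lies apart from the other lungs on both axes, and the 9 livers lie at 5494 or more for Igfbp1.

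After birth into 10% oxygen, Igfbp2 fell and Igfbp6 and Igfbp3 rose relative to the F21 lungs of the same oxygen level. Igfbp2 read 143, 128 and 119 at 2 h and 113, 181 and 75.1 at 6 h, against 314, 332 and 519 at F21 (log2 -1.55 at 2 h, adjusted p = 0.0104, and -1.72 at 6 h, adjusted p = 0.00228). Igfbp6 read 1214, 1041 and 1080 at 2 h and 890, 1766 and 1071 at 6 h, against 590, 621 and 523 at F21 (log2 0.94 at 2 h, adjusted p = 0.0484, and 1.05 at 6 h, adjusted p = 0.0158). No newborn array overlapped the F21 arrays for either gene. Set against the F21 lungs of room air instead, Igfbp2 gave -0.10 and -0.26 and Igfbp6 gave 0.28 and 0.38 at 2 h and 6 h, none passing, so that these 4 calls depend on which F21 lungs serve as the baseline. Red cell markers summed to 37666 to 58647 at 2 h and 30896 to 54142 at 6 h, against 22765 to 33755 at F21, alveolar markers to 44604 to 54749 and 49424 to 52999, against 22921 to 45419, and airway markers to 2585 to 3170 and 4209 to 5766, against 466 to 1684. The alveolar and airway sums are mostly Sftpc and Scgb1a1. Foxj1, also in the airway sum, did not rise, with medians of 190 at 2 h and 157 at 6 h, against 247 at F21. The part of these markers in the changes was not tested.

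Igfbp3 rose by both probe sets at 6 h in 10% oxygen. By 95082_at it read 14.9, 35.5 and 48.9 at F21, 84.3, 121 and 126 at 2 h, and 222, 281 and 149 at 6 h, each time above the last without overlap. The log2 change at 6 h was 2.83 by 95082_at (SE 0.78, adjusted p = 0.0286) and 3.07 by 95083_at (SE 0.72, adjusted p = 0.0115), and at 2 h 1.88 and 0.91, not passing. In all, 2 members passed at 2 h and 4 at 6 h, beside 2.65% and 6.31% of all probe sets. In fits without 1 array, the Igfbp2 calls were kept but for that at 2 h without the third F21 lung (log2 -1.32, adjusted p = 0.065). The Igfbp6 call at 2 h was lost in all 6 fits (log2 0.87 to 0.998), and that at 6 h without the third F21 lung (0.97) or the second 6 h lung (0.76). The Igfbp3 calls were lost without the second F21 lung (2.96 by 95082_at and 2.62 by 95083_at) or the second 6 h lung (2.62 and 2.70), and that of 95082_at also without the first F21 lung (2.33) or the first 6 h lung (2.79).

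At 2 h after birth, the lungs of 10% oxygen stood above those of room air in Igfbp6, Igfbp7 and 100566_at, and at 6 h 100566_at alone passed. At 2 h Igfbp6 read 1214, 1041 and 1080 in 10% oxygen, against 474, 567 and 361 in room air (log2 1.27, SE 0.26, adjusted p = 0.00187). Igfbp7 read 134, 82.2 and 85.5 in 10% oxygen, against 32.9, 38.0 and 17.9 in room air (log2 1.80, SE 0.41, adjusted p = 0.00467). The groups did not overlap, and both calls were kept in all 6 fits without 1 array, but that of Igfbp7 was lost when only the 2 groups were fitted (adjusted p = 0.0522 by limma). The red cell markers went the same way, at 37666 to 58647 in 10% oxygen, against 14912 to 19381 in room air, as did the BioB spike, at 370 to 410 in 10% oxygen, against 75.9 to 111 in room air. The alveolar sum, mostly Sftpc, did so too, at 44604 to 54749, against 25597 to 28664, while the airway sum was lower in 10% oxygen, at 2585 to 3170, against 5470 to 8401. The part of these markers or the spike in these differences, and in the difference of changes of Igfbp6, was not tested. The Gapdh ratios were 1.81 to 5.39 in 10% oxygen and 0.770 to 0.873 in room air, and the calls of Igfbp6 and Igfbp7 were kept with that ratio as a covariate. Since the ratios did not overlap, a call kept or lost with this covariate cannot tell oxygen level and RNA integrity apart.

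Probe set 100566_at was higher in 10% oxygen at 2 h, at 505, 773 and 514, against 303, 313 and 293 in room air (log2 0.95, adjusted p = 0.0293), and at 6 h, at 392, 566 and 745, against 193, 246 and 184 in room air (log2 1.41, adjusted p = 0.00762). With the Gapdh ratio as a covariate these became 0.33 and 0.83, not passing. The 2 h call was also lost without any 1 of the 3 lungs of room air (0.93 to 0.98) or without the second of 10% oxygen (0.75). In all, 3 members passed at 2 h, all higher, and 1 at 6 h, higher, beside 16.8% and 5.8% of all probe sets. The members' medians were 0.50 at F21, 0.33 at 2 h and 0.37 at 6 h, beside -0.04, -0.06 and -0.04 over all probe sets.

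**Figure D5:**
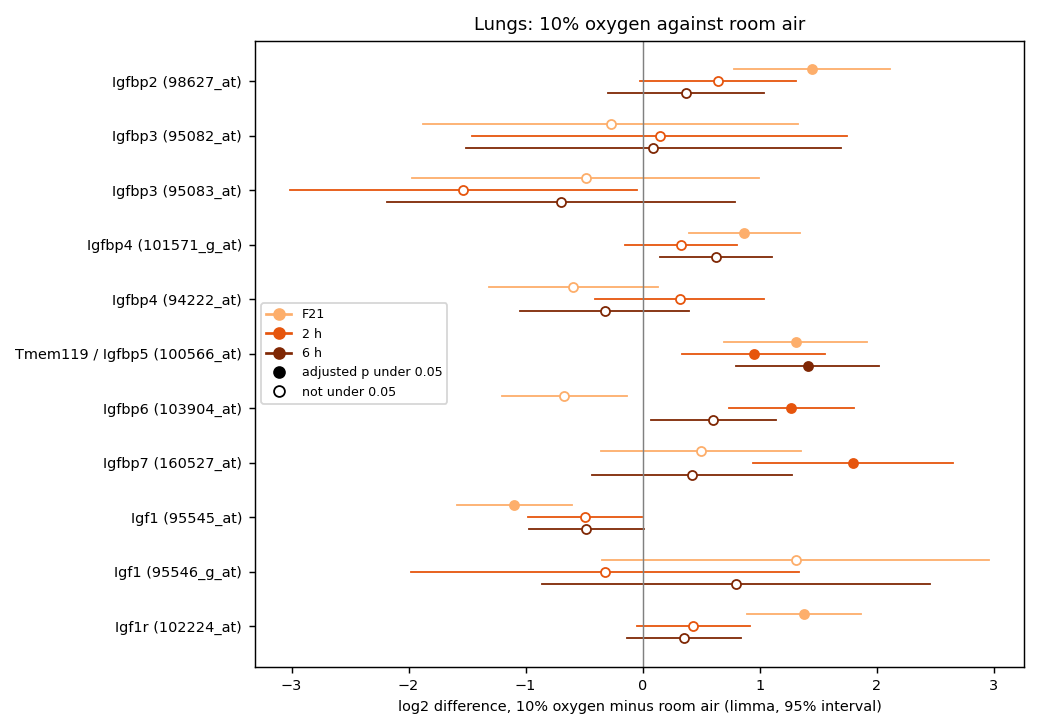
Log2 difference, 10% oxygen minus room air, in lungs at F21, 2 h and 6 h for the 11 member probe sets tested in lung; lines are 95% intervals from limma, and filled points have an adjusted p under 0.05. Probe set 100566_at is filled at all 3 times, Igfbp2, Igfbp4 (101571_g_at), Igf1 (95545_at) and Igf1r at F21, and Igfbp6 and Igfbp7 at 2 h.

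The change from F21 to 2 h differed between oxygen levels for 1 member, Igfbp6, beside 0.476% of all probe sets. It was log2 0.94 in 10% oxygen and -0.996 in room air, a difference of 1.94 (SE 0.37, 95% interval 1.19 to 2.70, adjusted p = 0.0147). At F21 Igfbp6 was lower in 10% oxygen, without passing, at 590, 621 and 523, against 1025, 870 and 862 in room air. The difference of changes therefore rests in part on these F21 lungs. The call was lost without the third 2 h lung of room air (1.77, adjusted p = 0.0527) and kept in the other 11 fits without 1 array. At 6 h the same difference was 1.27 (adjusted p = 0.258), and no member passed, beside 0.0144% of all probe sets. At an unadjusted limma p under 0.05 there were 3 of 11 members and 8.58% of all probe sets. For Igf1r the difference in change was -0.94 at 2 h and -1.02 at 6 h (adjusted p = 0.239 and 0.345), and for Igfbp3 by 95082_at it was 0.42 and 0.36, with intervals of -1.85 to 2.69 and -1.90 to 2.63.

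Between lung and liver the change to 2 h in room air differed for 1 of 12 tested members, Igfbp7, beside 0.929% of all probe sets. It fell in lung, with signals of 32.9, 38.0 and 17.9 at 2 h, against 89.0, 83.2 and 81.2 at F21, while the livers read 15, 66.8 and 63.1 at 2 h, against 13.2, 11.5 and 29.1 at F21. The difference of changes, lung minus liver, was -2.86 (SE 0.71, adjusted p = 0.0422). It was kept in 3 of 12 fits without 1 array, those without the second 2 h lung, the third F21 liver and the first 2 h liver, and ranged over -2.49 to -3.57 in all 12. At 6 h no member passed, beside 0.196% of all probe sets. At an unadjusted limma p under 0.05 there were 4 of 12 members and 8.66% of all probe sets.

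Other genes of the pathway were taken from a list of 88, with receptors, adaptors, kinases, outputs, the growth hormone axis and proteases of the binding proteins, of which 65 are on the array and 47 were tested in lung. Igf2, the main fetal IGF, was lower at 2 h than at F21 in lungs of 10% oxygen (log2 -1.22, adjusted p = 0.00191) and lower still at 6 h (-1.67, adjusted p = 2.36e-05), and in room air at 2 h (-0.78, adjusted p = 0.029). It was higher in 10% oxygen than in room air at F21 (1.23, adjusted p = 0.000715) and at 2 h (0.79, adjusted p = 0.011). Sgk1, a kinase downstream of PI3K that glucocorticoids also induce, rose in room air at 2 h, 6 h and 24 h (log2 2.87, 2.40 and 2.32), and also in 10% oxygen at 6 h (2.23, adjusted p = 0.0105), a value named after it was seen. At 2 h Sgk1 was lower in 10% oxygen than in room air (-1.71, adjusted p = 0.0249), also named after it was seen. The falls of Igf2 in 10% oxygen and its excess at F21 rest on the same 3 F21 lungs.

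In room air, 2 of 47 list members passed at 2 h (4.26%; 1 higher, 1 lower), 1 at 6 h (2.13%), none at 12 h and 1 at 24 h (2.13%), beside 4.24%, 1.02%, 1.34% and 0.577% of all probe sets. In 10% oxygen 3 passed at 2 h (6.38%, beside 2.65% of all probe sets), all lower: Igf2, Gsk3a, a kinase of glycogen metabolism (-0.67), and Htra1, a protease that can cut binding proteins (-1.25). At 6 h 5 passed (10.6%, beside 6.31%), with Tsc1, which restrains mTOR, at 1.70 and Socs2, which restrains growth hormone signalling, at 1.08 among the 3 higher. Of 10% oxygen against room air, 2 passed at F21 (4.26%, beside 7.13%), 9 at 2 h (19.1%, beside 16.8%; 5 higher, 4 lower) and none at 6 h (beside 5.8%). At 2 h these included Igf2 (0.79) and the growth signalling kinases Akt1 (0.84) and Rps6kb2 (1.98), all higher, and Gsk3a (-0.61), lower.

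Between organs 18, 17 and 18 of 50 tested list members passed at F21, 2 h and 6 h (36%, 34% and 36%), beside 28%, 33.9% and 28.6% of all probe sets. Igf2 was lower in lung, with log2 differences of -2.73, -3.48 and -3.31, and Igf2r, which clears Igf2, was higher by 2.22 at F21 and 2.59 at 2 h. The plasma proteins Vtn and Plg were the furthest below liver, at -8.54 and -8.79 at F21. In liver, 1 of 34 tested list members passed, Vtn at 6 h (-0.54, adjusted p = 0.0343).

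The probe sets most alike to each member over the 24 lung arrays are given as a description, since these arrays share their groups and their quality differences. Igfbp3 (95082_at) was most like Cdkn1a, an inhibitor of the cell cycle (r = 0.86), then Gpx3 and Wdr92 (r = 0.82 each). Igfbp6 was most like the globin Hba-a1 (r = 0.77), then Tpt1 and Mapt. Igf1r was most like Fgfr1, another growth factor receptor (r = 0.76), Igfbp2 like Ppp1r14b (r = 0.86) and Igfbp7 like Smarcad1 (r = 0.80). Igf1 (95545_at) was most like Gpr50 and Htr5a (r = 0.88 each), 100566_at like Pabpn1 (r = 0.90) and Igfbp4 (101571_g_at) like Hyal2 (r = 0.75).

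In the order of the 11 group means, most neighbours overlapped. For Igfbp7, Igf1 and Igfbp3 (95083_at) all 10 pairs of neighbouring groups overlapped in their arrays. For Igfbp6 6 of 10 did: the lungs of 10% oxygen at 6 h and 2 h led, at means of 1242 ± 463 and 1111 ± 91 (SD, n = 3 each), then the F21 lungs of room air at 919 ± 92, and every liver group came below every lung group. For Igf1r 8 of 10 did: all 3 groups of 10% oxygen led, at means of 364 to 443, the F21 lungs of room air were the lowest lung group at 164 ± 12, and the livers lay at 79.6 to 102. For Igfbp2 8 of 10 did: the livers led at 5165 to 6125, and the F21 lungs of 10% oxygen, at 389 ± 113, stood apart from the other lung groups, which lay at 83.5 to 152.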

How the data were processed

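RNA of 24 lung and 9 liver samples had been hybridised to 1-colour Affymetrix MGU74Av2 arrays. The authors deposited MAS5 signals, a linear intensity that they had scaled to a target of 100 on each chip. Detection calls were not used here, and the number of arrays limits the precision. No pair of arrays held identical values.

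Groups came from the sample titles. Leaving out 66 control probe sets, each signal was raised to at least 10 and put on the log2 scale. A probe set was tested where 3 or more arrays of a fit had it among their brightest 40%, which left 6931 in lung, 5693 in liver and 7640 in both organs. These were fitted with limma 3.58.1 in R 4.3.3 (trend; 16, 6 and 22 residual degrees of freedom), and p-values were adjusted by Benjamini-Hochberg over all of them. The fits were tested on simulated data.

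Members and lists were chosen with earlier results of these data known. All member probe sets were named, with at most 4 passing pathway genes per comparison by smallest p, and for the brightest probe set of each member gene up to 3 tested probe sets of most similar pattern. Alternatives were other filters, quantile normalization, a pseudocount of 16, a floor of 1, fewer groups in the fit, a block on sample number, a Gapdh covariate, array weights, the methods' two-sample test, another baseline and leaving out each array.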

Additional observations from a re-analysis of the deposited data

Results flagged for a closer look

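The change of Igfbp6 (103904_at) from F21 to 2 h differed between lungs of 10% oxygen and lungs of room air by log2 1.94 (SE 0.37, adjusted p = 0.0147 by the limma interaction), with 3 of 3 arrays higher than F21 in 10% oxygen and 3 of 3 lower in room air. It was kept under all 9 other settings run for it, at log2 1.90 to 1.96. The F21 signals of Igfbp6 did not overlap between oxygen levels (590, 621 and 523 in 10% oxygen, against 1025, 870 and 862 in room air). The difference therefore rests in part on these F21 lungs. The change of Igfbp7 (160527_at) from F21 to 2 h differed between lung and liver in room air by log2 -2.86 (SE 0.71, adjusted p = 0.0422), and it was kept under 5 of 8 other settings, at -2.00 to -3.01.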

How the results depend on the processing

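No passing member changed sign under any setting run. Numbers of member probe sets that passed changed by over 1.5 times as follows, and the cause was not tested. In lungs of room air against F21, the 2 at 2 h became 1 with no filter or with the top 30% filter, 5 with array weights and 0 with the methods' t-test after adjustment. The 2 at 6 h became 1 with quantile normalization, no filter, the top 30% filter or the replicate block, and 0 with the adjusted t-test. The 2 at 12 h became 1 with these and with a floor of 1, and 0 with the t-test, adjusted or not. The 0 at 24 h became 1 with the Gapdh covariate, the top 30% filter or the unadjusted t-test, and 2 with array weights. In 10% oxygen against its own F21, the 2 at 2 h became 1 with array weights or the replicate block, and the 4 at 6 h became 1 with array weights and 2 with only the groups compared or the unadjusted t-test; both became 0 with the adjusted t-test. Of 10% oxygen against room air, the 5 at F21 became 3 with only the groups compared and 0 with the Gapdh covariate or the adjusted t-test, the 3 at 2 h became 0 with the adjusted t-test, and the 1 at 6 h became 2 with quantile normalization and 0 with the Gapdh covariate or the adjusted t-test. Of the 5 calls at F21, those of Igf1 (95545_at), Igfbp4 (101571_g_at) and 100566_at were also lost with the unadjusted t-test. The F21 calls of Igfbp2 and Igf1r were kept with it. The 0 in liver at 2 h became 1 with the unadjusted t-test. The 1 in the change to 2 h, lung minus liver, became 0 with a pseudocount of 16, no filter, the top 30% filter or only the groups compared, and 3 with array weights. Between organs the 7 at each time stayed within 1.5 times, at 5 to 7, 5 to 7 and 5 to 8, but single calls were lost: Igf1r and 100566_at at F21 and 6 h with both forms of the t-test, and Igfbp3 (95083_at) at 2 h with a floor of 1, quantile normalization, no filter, the replicate block, the Gapdh covariate and both forms of the t-test.

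Leaving out 1 array gave 0 to 2, 0 to 1, 0 to 1 and 0 to 3 members in room air at 2 h, 6 h, 12 h and 24 h, 0 to 1 and 1 to 4 in 10% oxygen at 2 h and 6 h, 2 to 5, 2 to 3 and 1 between oxygen levels at F21, 2 h and 6 h, 6 to 7, 6 to 7 and 7 between organs, and 0 to 1 in each of the changes to 2 h. Other numbers stayed at 0. The calls of Igfbp1, Igfbp2, Igfbp6 and Igfbp4 (101571_g_at) between organs were kept in every setting that tested them and every such fit. Over 93 pairs of same-numbered arrays, deviations from group means correlated at -0.139 to 0.255 (median 0.005), and 5 exceeded 0.1. The highest, 0.255 and 0.167, were for the first and second lungs of room air at 12 h and 24 h. Low correlations cannot show whether same-numbered samples shared a litter. The replicate block changed no call but 4, at adjusted p = 0.0585 (Igf1r, room air 6 h), 0.0624 (Igfbp3, 95083_at, 12 h), 0.0578 (Igfbp6, 10% oxygen 2 h) and 0.0576 (Igfbp3, 95083_at, lung against liver at 2 h). The Igfbp7 call between oxygen levels at 2 h was lost with only the groups compared and with both forms of the t-test. Signal near the floor of 10 limits Igfbp1 in lung, Igfbp6 and F21 Igfbp7 in liver, Igfbp3 (95083_at) at F21 and 101570_at.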
